A study of Mus musculus with 6 samples.

Results

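The 10 genes described here encode the contents of cytotoxic granules, receptors of natural killer cells, a transcription factor and a cytokine of killer lymphocytes. They are Gzma, Gzmb, Prf1, Nkg7, Klrk1, Klrd1, Klrb1c, Ncr1, Eomes and Ifng, taken by symbol from the 24167 genes of the count table, where each has a single row. Their transcripts were measured in tumours that 4T1 cells, a murine line of triple-negative mammary carcinoma, had formed in the livers of female BALB/c mice of 6 to 8 weeks. In the silenced group the injected cells carried a lentiviral short hairpin RNA against Zdhhc17, which encodes a palmitoyltransferase (shZdhhc17, 3 libraries). In the control group they carried a scrambled hairpin in place of it (shSCR, 3 libraries), and both cell populations had been selected with puromycin. Each mouse received 500000 cells by hydrodynamic injection into the tail vein, and metastases were dissected under a microscope on day 10. The host's own cells, including every lymphocyte, carried no hairpin. The labels give 3 per group without saying outright that every library came from its own mouse, so the tests take in only the spread among these libraries, part of which may be technical.

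Killer lymphocytes, chiefly natural killer cells and CD8 T cells, store perforin and granzymes in secretory granules. On contact with a target cell perforin opens its membrane and granzymes, a family of serine proteases, enter and set off cell death. Natural killer cells, which are numerous in the liver, decide whether to attack by adding up signals from activating and inhibitory receptors, most of which belong to a lectin-like family encoded together in the genome. Interferon gamma, released by the same cells, acts on neighbouring cells through a receptor coupled to the kinases Jak1 and Jak2.

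The promoters show where 2 motifs of factors in this pathway occur, one of T-box factors such as Eomes and one of Stat factors. RefSeq promoter windows of 300 bases, from 250 bases before to 50 after the start site, were at hand for 9 of the 10 genes; there was none for Klrd1. The T-box half-site GGTGTGA, searched on both strands, was found in the window of 1 gene, Nkg7, and in 3.98% of all 32851 windows. The Stat motif TTCNNNGAA, which reads the same on both strands, was found for 3 genes, Gzmb, Nkg7 and Ifng, and in 8.30% of all windows. A match of letters is a description and shows no binding. The upstream 250 bases of Nkg7 and Ifng are printed because they hold these matches, in capitals, which begin 220 and 13 bases before the start site in Nkg7 and 249 bases before it in Ifng. In Gzmb the match lies 38 bases into the transcribed part, which is not printed. The sequences are those of the plus strand of GRCm38.p6, 5′ to 3′, at chr7:43436888-43437137 for Nkg7 and chr10:118440796-118441045 for Ifng.
Nkg7: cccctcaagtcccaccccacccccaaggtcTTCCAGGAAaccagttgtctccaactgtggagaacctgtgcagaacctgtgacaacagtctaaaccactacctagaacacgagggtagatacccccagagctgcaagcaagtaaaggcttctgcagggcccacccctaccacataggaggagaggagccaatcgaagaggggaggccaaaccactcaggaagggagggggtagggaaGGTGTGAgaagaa
Ifng: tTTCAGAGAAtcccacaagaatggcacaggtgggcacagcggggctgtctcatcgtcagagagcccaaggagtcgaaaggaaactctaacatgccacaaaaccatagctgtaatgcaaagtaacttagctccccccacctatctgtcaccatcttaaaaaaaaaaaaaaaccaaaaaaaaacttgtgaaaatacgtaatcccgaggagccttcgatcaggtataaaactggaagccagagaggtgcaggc

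Gene counts summed to between 15832837 and 19186615 per library, and the 10 genes together received only 141, 357 and 382 of them in shZdhhc17 replicates 1, 2 and 3, against 178, 711 and 1011 in shSCR replicates 1, 2 and 3. Levels are given in CPM, which scales counts by the normalized size of the library; on this scale 3 counts are worth 0.157 to 0.198 CPM. The libraries were unlike within groups: the share of hepatocyte marker genes was 3.28% for shSCR replicate 3, while the other 5 libraries had 5.50% to 7.36%, and a copy of 18S ribosomal RNA took 2.54% in shSCR replicate 1 and 0.194% to 0.412% elsewhere. Alb of hepatocytes and Krt18, an epithelial keratin from the list of carcinoma markers, were abundant in every library. The 8 genes of that list summed to 1703 to 3085 CPM in shZdhhc17 and 2028 to 3111 CPM in shSCR. The cells these epithelial transcripts came from were not resolved, so the sum does not measure tumour content. Zdhhc17, the silenced gene, stood at 25.8, 27.7 and 25.9 CPM in the shZdhhc17 libraries, against 33.7, 32.4 and 34.1 CPM in the shSCR libraries. The groups did not overlap, as in 9.62% of all genes tested on the lower side. The log2 fold change, which is always given as shZdhhc17 minus shSCR, was -0.33 ± 0.11 (SE, adjusted p = 0.383).

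None of the 10 genes passed the test of silenced against control metastases, and in each of them the groups overlapped. The main feature was instead a spread within the control group whose order the 10 genes largely shared. On the fold scale Nkg7 and Klrk1 spread somewhat more widely in the silenced group. The other genes without a count of 0 spread more widely in the control group. All 10 were lowest within their group in shSCR replicate 1, 8 were highest of all 6 libraries in shSCR replicate 3, and the other two, Prf1 and Nkg7, were highest in shSCR replicate 2. Of the 8 genes abundant enough to be tested, 6 had the order shSCR replicate 3 at the top and shSCR replicate 1 at the bottom of their group, as did 23.6% of all 15567 genes tested. Within the silenced group, 7 of the 10 were lowest in replicate 1. Summed over the 10 genes, the level was 8.85, 21.3 and 25.2 CPM in shZdhhc17 replicates 1, 2 and 3, against 9.69, 37.1 and 56.3 CPM in shSCR replicates 1, 2 and 3. In a whole-tissue sample, fewer cells of a type cannot be told apart from less RNA per cell.

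**Figure D1:**
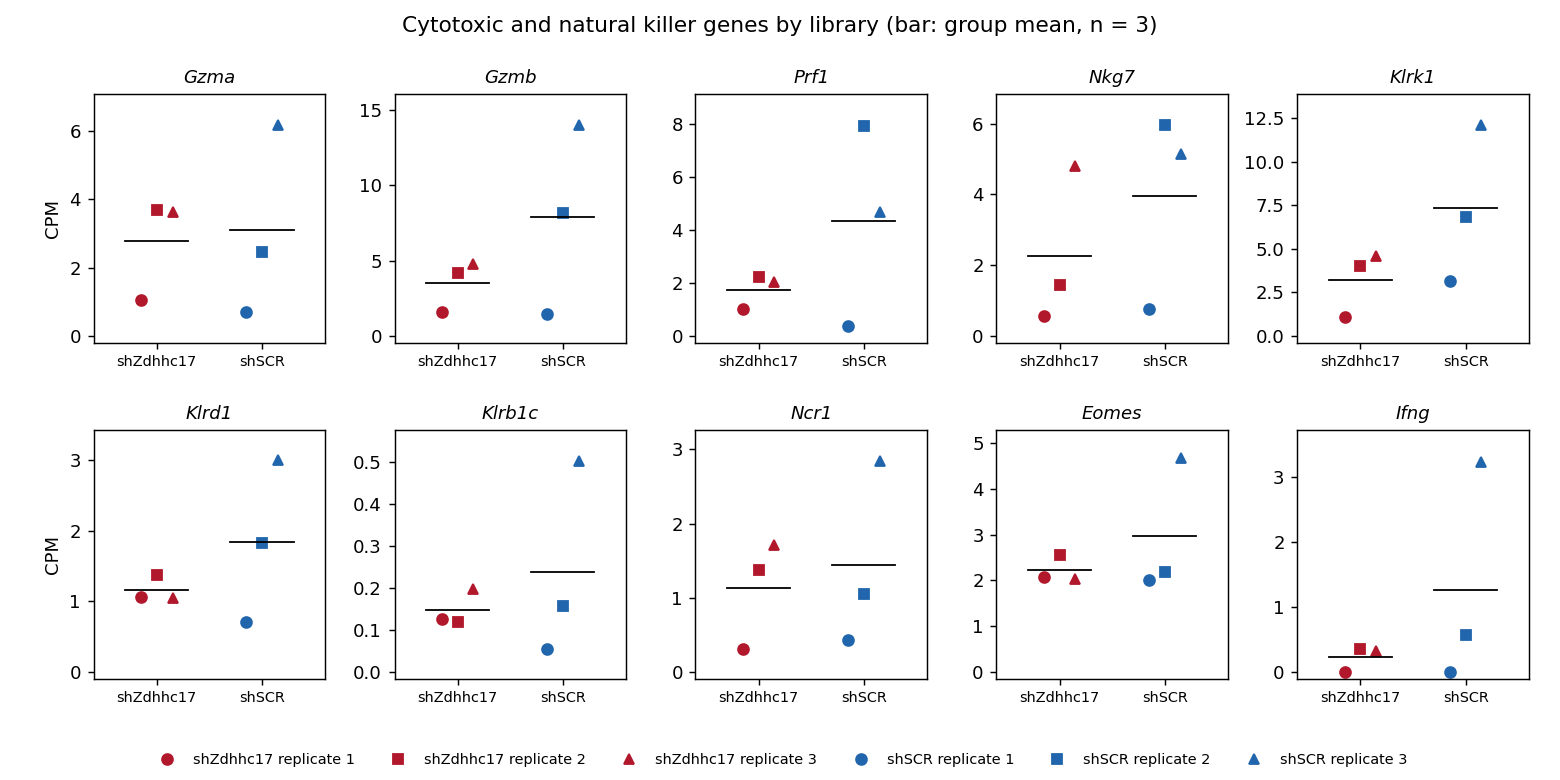
Levels in CPM of the 10 genes in each library, shZdhhc17 (red) left of shSCR (blue), with a symbol per replicate, a bar at the group mean (n = 3) and a separate scale in each panel. The shSCR points spread from the lowest value of their group in replicate 1 to the highest in replicate 3, or in replicate 2 for Prf1 and Nkg7, and the groups overlap in every panel.

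Among the granule genes, the fold changes ran from -0.15 for Gzma to -1.30 for Prf1 on the log2 scale, and none passed. Gzma, a tryptase that cleaves proteins in the target cell, stood at 1.07, 3.70 and 3.62 CPM in the shZdhhc17 libraries, against 0.708, 2.45 and 6.18 CPM in the shSCR libraries. Its middle and lowest values were both higher in shZdhhc17 and only shSCR replicate 3 lay above that group. The fitted log2 fold change of Gzma was -0.15 ± 0.75 (SE; adjusted p = 0.953). It was -0.62 without shSCR replicate 1, 0.81 without shSCR replicate 3 and 0.26 without shZdhhc17 replicate 1.

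Gzmb, the granzyme that cleaves after aspartate and activates caspases, stood at 1.57, 4.18 and 4.74 CPM in the shZdhhc17 libraries, against 1.47, 8.15 and 13.98 CPM in the shSCR libraries. Replicate 1 was similarly low in both groups, and the other two control libraries lay above all silenced ones. Gzmb had a log2 fold change of -1.17 ± 0.74 (SE; adjusted p = 0.559), which was -1.66 without shSCR replicate 1 and -0.46 without shSCR replicate 3.

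Prf1, which encodes perforin, stood at 1.00, 2.21 and 2.04 CPM in the shZdhhc17 libraries, against 0.381, 7.94 and 4.68 CPM in the shSCR libraries. The control range, 20.8-fold, enclosed the whole silenced range, which was 2.20-fold. Its log2 fold change was -1.30 ± 0.85 (SE; adjusted p = 0.569), with -1.84 without shSCR replicate 1 and -0.53 without shSCR replicate 2. Nkg7, a granule membrane protein needed for efficient release of granules, stood at 0.565, 1.43 and 4.81 CPM in the shZdhhc17 libraries, against 0.762, 5.95 and 5.12 CPM in the shSCR libraries. Here shZdhhc17 replicate 3 alone reached the level of the 2 high controls. For Nkg7 the log2 fold change was -0.81 ± 0.87 (SE; adjusted p = 0.740). It was -1.97 without shZdhhc17 replicate 3 and -1.29 without shSCR replicate 1. Leaving out shZdhhc17 replicate 1 gave -0.33, and leaving out shSCR replicate 2 gave -0.38.

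The receptor genes were likewise lower on average in shZdhhc17 metastases, without passing. Klrk1 encodes NKG2D, an activating receptor for stress-induced ligands on tumour cells that is carried by natural killer cells and by some T cells. Its levels were 1.07, 4.00 and 4.61 CPM with shZdhhc17, against 3.16, 6.84 and 12.1 CPM in the shSCR libraries. Only the lowest control library lay inside the silenced range. Klrk1 had a log2 fold change of -1.19 ± 0.62 (SE), with the smallest adjusted p of the 8 tested, 0.495. Without shSCR replicate 1 it was -1.55, without shSCR replicate 3 -0.64 and without shZdhhc17 replicate 1 -0.75.

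Klrd1 encodes CD94, the partner chain of the NKG2 receptors that recognise the class Ib molecule Qa-1. Its levels were 1.07, 1.37 and 1.05 CPM with shZdhhc17, against 0.708, 1.83 and 3.01 CPM in the shSCR libraries. The silenced values were close together inside the control range. Klrd1 had a log2 fold change of -0.66 ± 0.51 (SE; adjusted p = 0.627), which was -1.04 without shSCR replicate 1 and -0.13 without shSCR replicate 3.

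Ncr1, which encodes NKp46, the receptor gene most restricted to natural killer and related innate lymphoid cells, stood at 0.314, 1.37 and 1.71 CPM in the shZdhhc17 libraries, against 0.435, 1.04 and 2.84 CPM in the shSCR libraries. These levels rest on 5, 23 and 26 counts in the silenced group and on 8, 20 and 51 counts in the control group. The log2 fold change was -0.34 ± 0.76 (SE; adjusted p = 0.881), and it was -0.77 without shSCR replicate 1, 0.60 without shSCR replicate 3 and 0.12 without shZdhhc17 replicate 1. Klrb1c, which in other strains carries the NK1.1 epitope that BALB/c mice lack, had 2, 2 and 3 counts in the shZdhhc17 libraries, against 1, 3 and 9 counts in the shSCR libraries. It did not pass the filter on low counts; fitted without that filter, its log2 fold change was -0.65 (edgeR adjusted p = 0.818).

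Eomes, a T-box transcription factor of mature natural killer cells and effector T cells, was the steadiest of the 10. Levels of 2.07, 2.56 and 2.04 CPM were measured in the shZdhhc17 libraries, against 2.01, 2.19 and 4.68 CPM in the shSCR libraries. All libraries but shSCR replicate 3 lay between 2.01 and 2.56 CPM. The log2 fold change was -0.41 ± 0.38 (SE; adjusted p = 0.693), with -0.62 without shSCR replicate 1 and 0.08 without shSCR replicate 3. Ifng, the gene of interferon gamma, had 0, 6 and 5 counts in the shZdhhc17 libraries, against 0, 11 and 58 counts in the shSCR libraries. A single library, shSCR replicate 3, held 84.1% of the control counts. Ifng also did not pass the filter, and fitted without it had a log2 fold change of -2.41 (edgeR adjusted p = 0.604), which depends on the prior count. A count of 0 allows a level of up to 0.188 CPM in shZdhhc17 replicate 1 and up to 0.163 CPM in shSCR replicate 1, for counting error only.

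By edgeR's quasi-likelihood test with Benjamini-Hochberg adjustment over all 15567 genes, 0 of the 8 tested genes passed an adjusted p under 0.05, as did 0% of all genes. At an unadjusted p under 0.05, 0 of the 8 were lower, where 6.71% of all genes were, and 1780 genes of either direction had such a p. DESeq2 called 0 of the 10, with 1, Klrk1, at an unadjusted p under 0.05, where 8.21% of all genes had such a p in that fit and 4.34% had it on the lower side. A count of 1 of 10 is close to these shares. DESeq2 called 201 genes in all, or 0.832%. Limma voom called 0 of the 8 and 0 genes in all, with 0 of the 8 at an unadjusted p under 0.05. The log2 fold change was negative for 8 of the 8, where it was negative for 49.7% of all genes, and the median was -0.73 against 0.0017 over all genes tested. The genes shared their rank order across libraries, so these signs are not independent. The values moved in opposite directions with the lowest and the highest control library left out. Without shSCR replicate 1, 8 of the 8 were negative with a median of -1.17, and 0 passed the adjusted threshold in edgeR. An unadjusted p under 0.05 was found for 4, where 11.1% of all genes had it on the lower side. All 10 genes were lowest of their group in that library, so leaving it out raised their control means. Nothing about the genes is read from that count. Without shSCR replicate 3, 5 of the 8 were negative, where 47% of all genes were, with a median of -0.30 and 0 at an unadjusted p under 0.05. In the authors' deposited table, all 10 log2 fold changes were negative, between -0.13 for Gzma and -2.43 for Ifng, and the smallest q was 0.391, that of Klrk1; q was under 0.05 for 0.844% of all genes there. The authors' deposited enrichment table gave the KEGG set of natural killer cell cytotoxicity a normalized enrichment score of -1.49 over 105 genes with a q of 0.248. Gzmb, Prf1, Klrk1 and Ifng were among its 20 leading genes, and how many of the 10 belong to the set was not counted. Scores of the related sets looked up there ran from -1.35 (q of 0.483, Biocarta natural killer cells) to -1.70 (q of 0.0799, Hallmark allograft rejection).

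**Figure D2:**
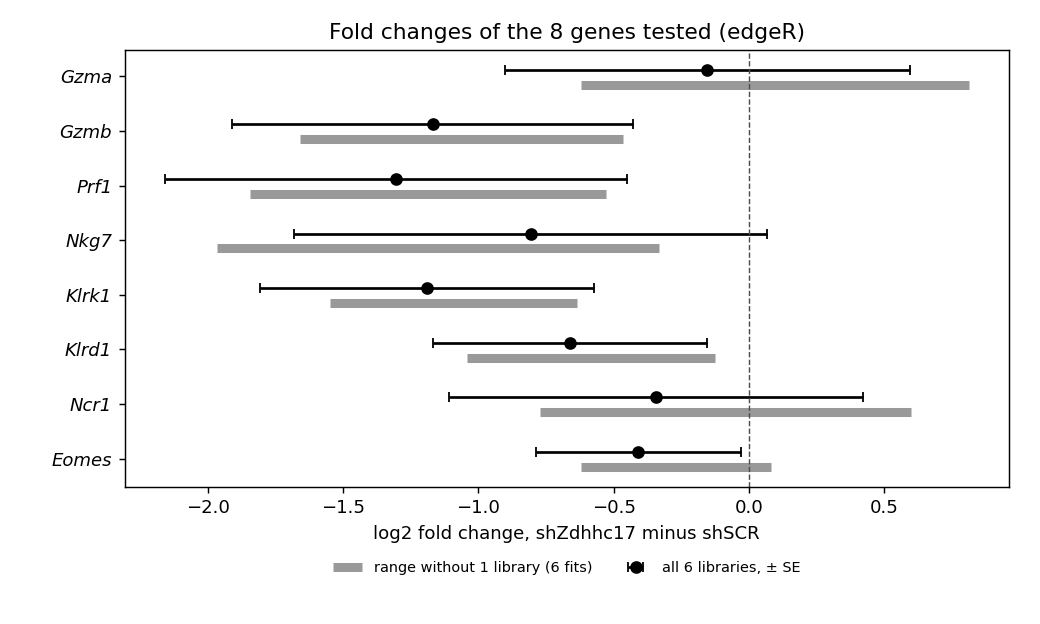
Log2 fold changes (shZdhhc17 minus shSCR, edgeR) of the 8 genes tested, as points with standard errors, and as grey bars the range over the 6 fits that leave out 1 library. The bars of Gzma, Ncr1 and Eomes cross 0, reaching 0.81, 0.60 and 0.08, and the other 5 stay below 0.

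Per kilobase of exon, the granzymes and Nkg7 were the most abundant of the 10 in both groups. In shZdhhc17 metastases the levels were 2.78 ± 1.49 CPM per kb for Gzma, 2.48 ± 2.45 for Nkg7 and 2.43 ± 1.18 for Gzmb (SD, n = 3). In shSCR metastases they were 3.10 ± 2.78 for Gzma, 4.32 ± 3.05 for Nkg7 and 5.48 ± 4.36 CPM per kb for Gzmb (SD, n = 3). In shZdhhc17 the next were Klrd1, Ncr1, Prf1, Eomes and Klrk1, between 0.449 and 0.909 CPM per kb. In shSCR the next were Prf1, Klrd1, Klrk1, Ifng, Ncr1 and Eomes, between 0.713 and 1.68 CPM per kb. The place of Klrk1 depends on its length, which as a union of annotated exons was 7183 bases. Those of Nkg7, Gzma and Gzmb were 914, 1006 and 1436 bases, and before this division Klrk1 was close to Gzmb. Ifng had 0.177 ± 0.154 CPM per kb in shZdhhc17 and 0.980 ± 1.33 CPM per kb in shSCR, and Klrb1c was the lowest, at 0.0498 ± 0.0147 in shZdhhc17 and 0.0802 ± 0.0791 CPM per kb in shSCR (SD, n = 3). Neighbours among the first 3 did not differ beyond their spread in either group, nor did neighbours among those that came next.

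Ratios of their counts, which do not depend on library scaling, were compared for 36 pairs, leaving out Ifng with its counts of 0, and 3 of them (8.33%) did not overlap between the groups. Of all genes tested, 17.1% had levels that did not overlap in either direction. Levels and ratios are unlike measures, and no share of ratios over other genes was computed. The 3 ratios are therefore given as a description and nothing about these genes is read from them. These 3 were picked after all 36 had been seen, and 2 of them involve Gzma and 2 involve Klrk1, so they are not separate observations. Gzmb took 59.5%, 53.0% and 56.7% of the Gzma and Gzmb counts in shZdhhc17 replicates 1, 2 and 3, against 67.5%, 76.8% and 69.3% in shSCR replicates 1, 2 and 3. Every silenced library was lower than every control library. The exact 95% binomial intervals, which cover counting error only, were 43.3% to 74.4% in shZdhhc17 replicate 1 and 50.9% to 81.4% in shSCR replicate 1. These genes had 42 and 40 counts there, so those 2 libraries cannot be told apart by counting alone. The intervals were 44.2% to 61.8% and 47.6% to 65.5% in shZdhhc17 replicates 2 and 3, against 70.4% to 82.5% and 64.3% to 74.0% in shSCR replicates 2 and 3. Each replicate 1 interval overlapped every interval of the other group. Those of shZdhhc17 replicate 3 and shSCR replicate 3 overlapped as well. Gzma counts per Klrk1 count were 1, 0.925 and 0.786 in the shZdhhc17 libraries, against 0.224, 0.359 and 0.512 in the shSCR libraries. Klrk1 counts per Ncr1 count were 3.40, 2.91 and 2.69 in the shZdhhc17 libraries, against 7.25, 6.55 and 4.26 in the shSCR libraries.

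**Figure D3:**
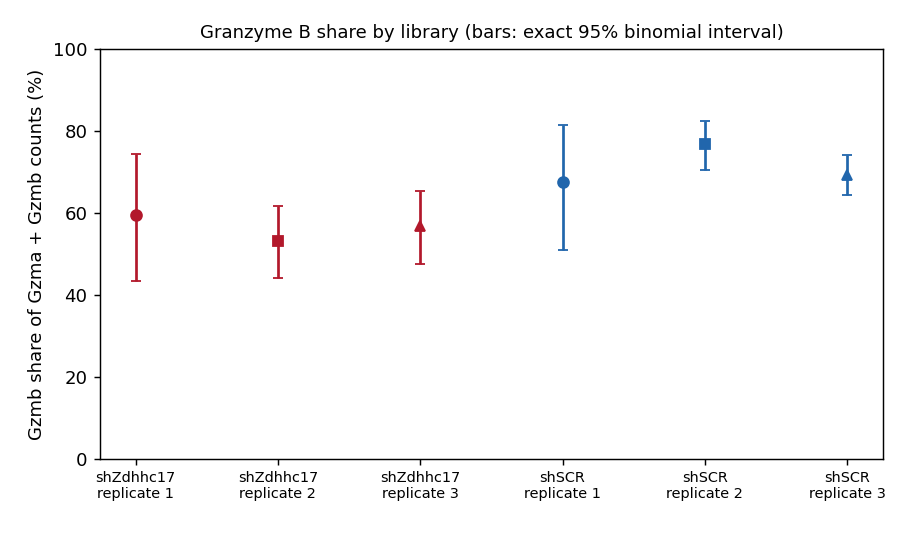
Share of Gzmb among the counts of Gzma and Gzmb in percent, by library, shZdhhc17 left of shSCR, with exact 95% binomial intervals as bars. The shZdhhc17 points lie between 53.0% and 59.5% and the shSCR points between 67.5% and 76.8%, with wide intervals in replicate 1 of both groups.

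The other granzymes of the Gzmb cluster ran the opposite way. On chromosome 14, Gzmc, Gzmf, Gzmg, Gzmd and Gzme lie beside Gzmb, and they are known from activated mouse lymphocytes. Gzmc stood at 4.40, 3.82 and 4.21 CPM in the shZdhhc17 libraries, against 0.980, 1.62 and 3.40 CPM in the shSCR libraries. The groups did not overlap, as in 7.46% of all genes tested on the higher side, and the log2 fold change was 1.05 ± 0.43 (SE; adjusted p = 0.420). Gzmd, Gzmg and Gzmf had 1.90 ± 0.87, 1.95 ± 0.91 and 1.31 ± 0.97 (SE; adjusted p = 0.458, 0.462 and 0.612), each with a count of 0 in shSCR replicate 1, so these fitted values depend on the prior count. Gzme, at 0.418 to 0.628 CPM in shZdhhc17 and 0.0544 to 0.313 CPM in shSCR, was too low to test. All 4 tested were positive, beside 8 of 8 negative among the genes above, and 0 of 4 passed; 1, Gzmc, had an unadjusted p under 0.05, where 4.72% of all genes did on the higher side. These 5 genes are close copies of each other, so how their reads were shared is uncertain. Gzmk and Gzmm, granzymes of other loci, were too low to test as well, at up to 0.239 and 0.440 CPM in shZdhhc17 and up to 0.627 and 0.947 CPM in shSCR.

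**Figure D4:**
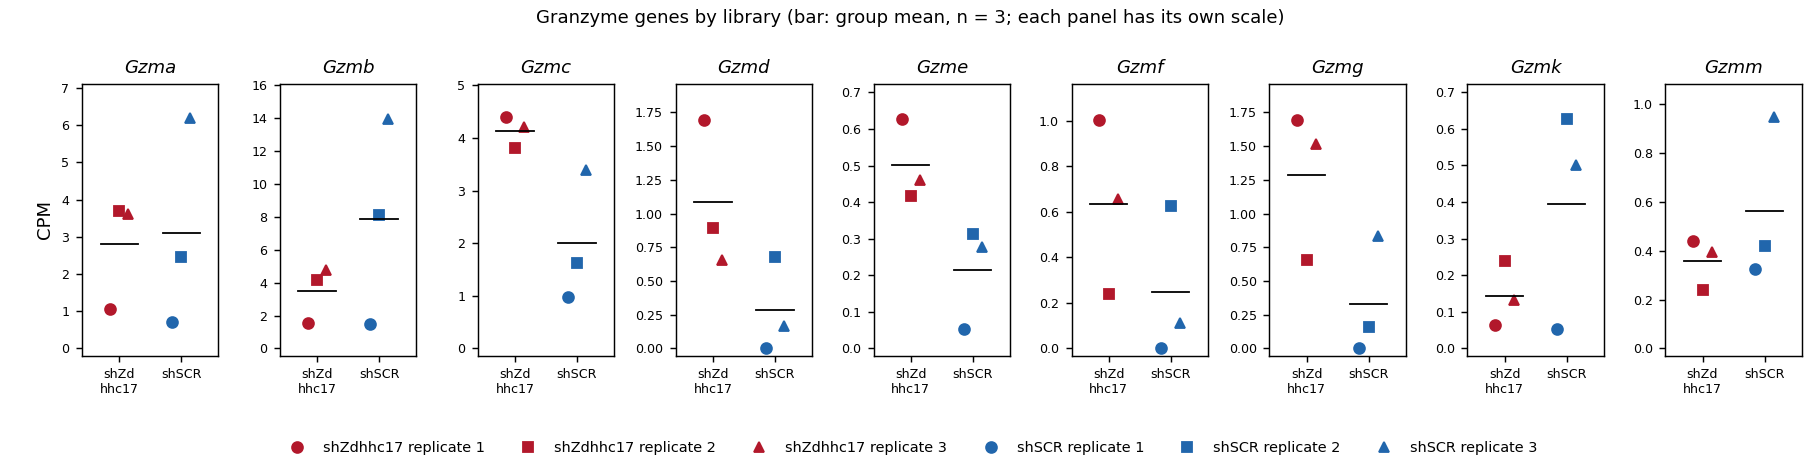
Levels in CPM of the 9 granzyme genes in the table by library, shZdhhc17 (red) left of shSCR (blue), with a symbol per replicate and a bar at the group mean (n = 3); each panel has its own scale. Gzmc to Gzmg have the higher mean in shZdhhc17, while Gzma, Gzmb, Gzmk and Gzmm have the higher mean in shSCR.

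Across the rest of the pathway, no gene passed in edgeR, and the genes that came nearest were a receptor, transcription factors and Jak2. The 13 lists for it hold 132 genes, of which 121 are in the table and 98 were tested. By edgeR 0 passed in either direction, with 2 higher and 7 lower at an unadjusted p under 0.05, where 4.72% of all genes were higher and 6.71% lower. DESeq2 called 1 higher and 2 lower among 121, where it called 0.832% of all genes, and limma voom called 0 among 98. The log2 fold change was negative for 70 of the 98 in edgeR, with a median of -0.21.

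Other natural killer receptors gave 9 negative of 10 tested, with a median of -0.16, and 6 negative of 11 without shSCR replicate 3. Klrb1b, an inhibitory lectin-like receptor gene beside Klrb1c on chromosome 6, stood at 0.879, 1.07 and 1.38 CPM in the shZdhhc17 libraries, against 1.58, 3.97 and 9.97 CPM in the shSCR libraries. The groups did not overlap, as in 9.62% of all genes on the lower side, and the log2 fold change was -2.21 ± 0.65 (SE; edgeR adjusted p = 0.346). It is a member of a set of close relatives, and in the authors' deposited table its q was 0.0278. Klrc1, the inhibitory partner NKG2A of CD94, had -1.53 ± 0.95 (SE; adjusted p = 0.553).

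The ligands of these receptors that could be tested were nearly level, with 4 positive and 5 negative among 9 and a median of -0.03. Of the 14 ligand genes listed, Raet1a, Raet1b, Raet1c and H60a were not among the counted genes. Nothing can be said of their transcripts. Raet1e, an NKG2D ligand gene, stood at 1.82, 1.61 and 1.51 CPM in the shZdhhc17 libraries, against 0.980, 0.940 and 1.28 CPM in the shSCR libraries. The groups did not overlap, as in 7.46% of all genes tested on the higher side. The log2 fold change was 0.63 ± 0.29 (SE, adjusted p = 0.462). Nectin2, a ligand of the activating receptor DNAM-1, had 0.21 ± 0.12 (SE; adjusted p = 0.530).

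The adaptors that pass on receptor signals, 8 tested with a median of -0.18, included Fcer1g at -0.36 ± 0.20 and Tyrobp at 0.22 ± 0.14 (SE; adjusted p = 0.516 and 0.558). Both also serve myeloid cells. Of the genes for granule exocytosis, 7 tested with a median of 0.03, Unc13d, which primes granules for fusion, had -0.67 ± 0.24 (adjusted p = 0.391). Its levels were 22.7, 21.5 and 20.0 CPM in shZdhhc17 and 23.7, 32.1 and 46.3 CPM in shSCR. They did not overlap, as in 9.62% of all genes tested on the lower side. Rab27a, which docks granules, had 0.42 ± 0.23 (SE; adjusted p = 0.514).

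Among granule cargo and death ligands, 5 tested with a median of -0.22, Lamp1, a lysosome membrane protein of most cell types, had 0.39 ± 0.17, and Tnfsf10, the death ligand TRAIL, -1.43 ± 0.63 (SE; adjusted p = 0.441 and 0.447). The granzyme inhibitors Serpinb6b and Serpinb9, of 4 tested with a median of -0.07, had -0.19 ± 0.20 and -0.13 ± 0.24 (SE; adjusted p = 0.730 and 0.847), and Serpinb9 turned positive without shSCR replicate 3 (0.17).

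Transcription factors of the lineage were split, 5 positive and 5 negative among 10 tested. Tox, which is needed for natural killer cell development and marks exhausted T cells, stood at 5.34, 6.62 and 8.03 CPM in the shZdhhc17 libraries, against 3.76, 2.66 and 2.06 CPM in the shSCR libraries. Levels of Prdm1, the gene of the transcriptional repressor Blimp-1, were 4.27, 7.16 and 5.01 CPM with shZdhhc17. With shSCR they were 10.5, 9.61 and 8.91 CPM. Neither overlapped between groups, in opposite directions, where 7.46% of all genes tested did not overlap on the higher side and 9.62% on the lower. Their log2 fold changes were 1.23 ± 0.29 and -0.82 ± 0.23 (SE; edgeR adjusted p = 0.307 and 0.329), and Tox had a q of 0.0224 in the authors' deposited table. Both genes are also expressed outside lymphocytes, and the cells they came from were not resolved.

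Of cytokines that activate natural killer cells 3 were tested. Il27 had -1.70 ± 0.83 and Il15, the survival factor of these cells, -0.39 ± 0.30 (SE, adjusted p = 0.481 and 0.631). The third was level at -0.0077, and with DESeq2 size factors only 2 of the 3 were negative. Of 8 cytokine receptor genes 6 were negative, with a median of -0.63 (4 of 8 and -0.086 without shSCR replicate 3), including Il2rg, the common gamma chain, at -1.15 ± 0.49; Il18r1 had 0.74 ± 0.33 (SE; adjusted p = 0.440 and 0.446). Chemokine and homing genes gave 10 negative of 11 tested, with Ccl5 at -1.43 ± 0.53 and Ccl4 at -1.04 ± 0.51 (SE; adjusted p = 0.405 and 0.480).

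Downstream of Ifng, Jak2 gave the clearest separation. Levels of 85.3, 88.2 and 96.7 CPM were measured in the shZdhhc17 libraries, against 138, 143 and 166 CPM in the shSCR libraries. The groups did not overlap, as in 9.62% of all genes tested on the lower side, and the spread within each was small. The log2 fold change was -0.73 ± 0.13 (SE; edgeR adjusted p = 0.307, unadjusted p = 0.000684), and q was 0.00344 in the authors' deposited table. Unlike the 10 genes, Jak2 is expressed in most cell types. Socs1, a feedback inhibitor of the same pathway, stood at 7.60, 12.3 and 18.8 CPM in the shZdhhc17 libraries, against 5.66, 15.9 and 115.8 CPM in the shSCR libraries, and its log2 fold change of -1.83 ± 0.99 (SE; adjusted p = 0.511) was 0.25 without shSCR replicate 3. The list of interferon gamma targets had a negative log2 fold change for 12 of 12, with a median of -1.16 and 0 past the test. Without shSCR replicate 3, 11 of 12 were negative and the median was -0.20, and without shZdhhc17 replicate 1 it was -0.78. For Ido1, whose enzyme breaks down tryptophan, the log2 fold change was -3.54 ± 1.38, and for the chemokine gene Cxcl11 it was -2.08 ± 0.97 (SE; adjusted p = 0.409 and 0.464). The summed level of the 12 targets was 367, 705 and 794 CPM in shZdhhc17 replicates 1, 2 and 3, against 432, 949 and 2406 CPM in shSCR replicates 1, 2 and 3, so the highest control library was again shSCR replicate 3.

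Markers of other cells that the tissue could hold were summed beside the 10 genes. T cell markers, 10 genes that include Cd3d, Cd3e and Cd8a, summed to 9.54, 18.2 and 16.7 CPM in shZdhhc17 replicates 1, 2 and 3, against 11.3, 46.6 and 46.4 CPM in shSCR replicates 1, 2 and 3. None of the 10 was at 0 in any library. As with the killer genes, replicate 1 was low in both groups and the other two controls were high. Cd8a, the coreceptor of killer T cells, had -2.43 ± 1.00, Cd3g -1.33 ± 0.54 and Cd3d -1.45 ± 0.62 (SE; adjusted p = 0.423, 0.419 and 0.437). Per unit of T cell marker level, the 10 genes summed to 0.928, 1.17 and 1.51 in the shZdhhc17 libraries, against 0.856, 0.796 and 1.22 in the shSCR libraries, and the groups overlapped. The part of T cells in the levels of the killer genes was not tested.

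Pan-leukocyte markers differed less between libraries. The 4 genes summed to 302 to 370 CPM in shZdhhc17 and 236 to 451 CPM in shSCR. Per 1000 CPM of them, the 10 genes stood at 29.3, 65.7 and 68.0 CPM in the shZdhhc17 libraries, against 41.0, 93.9 and 125.0 CPM in the shSCR libraries, again with overlap. With the leukocyte level as a covariate, a fit chosen after seeing the data, 6 of the 8 tested were negative, with a median of -0.35. Neutrophil markers went the other way, with sums of 534 to 920 CPM in shZdhhc17 and 238 to 424 CPM in shSCR. Of the 11 genes, 8 did not overlap between the groups, where 7.46% of all genes tested did not on the higher side. No gene was at 0. S100a9, S100a8 and Mmp8, with the smallest p of the list, had log2 fold changes of 1.80 ± 0.52, 2.18 ± 0.62 and 2.06 ± 0.58 (SE, edgeR adjusted p = 0.331, 0.329 and 0.328). In the authors' deposited table their q was 0.0152, 0.159 and 0.0151. Mmp9 and Csf3r of the same list were level, at 0.035 and -0.0076. The hepatocyte sum was lowest in shSCR replicate 3, the library with the most killer transcripts. With the hepatocyte level as a covariate, 6 of the 8 were negative, with a median of -0.28. Whether the makeup of the dissected tissue plays a part in the levels of the killer genes was not tested beyond these fits.

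**Figure D5:**
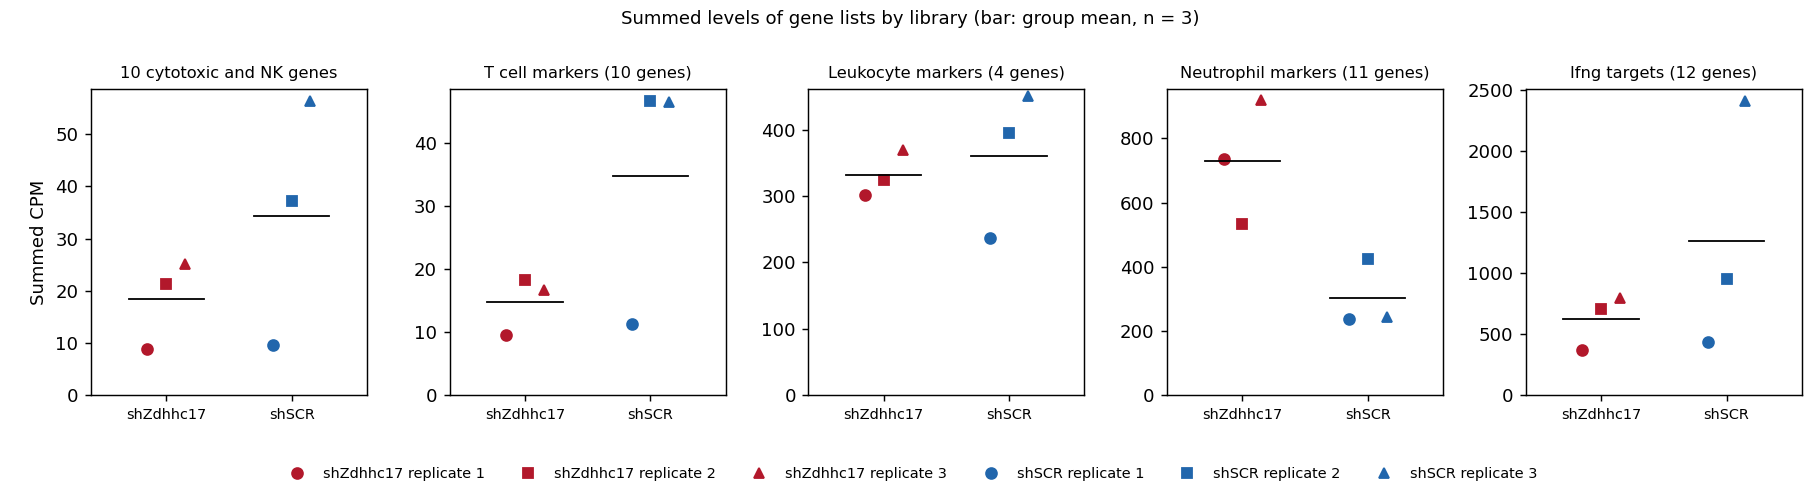
Summed CPM per library of the 10 genes, of T cell, leukocyte and neutrophil markers and of interferon gamma targets, shZdhhc17 (red) left of shSCR (blue), with a symbol per replicate and a bar at the group mean (n = 3). The sums of the 10 genes, of T cell markers and of the targets are low in shSCR replicate 1 and high in shSCR replicate 3, while the neutrophil sums of the groups do not overlap.

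The genes whose levels over the 6 libraries were most like the mean course of the 10 included interferon-related transcription factors and leukocyte receptors. Among 13188 candidates with a mean of at least 1 CPM, the smallest root mean square distances on the centred log2(CPM + 1) scale were 0.0622 for Irf7, 0.0834 for Ccdc88b, 0.0939 for Slamf7, 0.108 for Irf8, 0.109 for P2ry6 and 0.113 for Cd5. The 10 genes themselves lay between 0.230 (Ncr1) and 0.504 (Prf1) from their own mean. These distances are not alike, since the 6 genes are the closest of 13188. The 1 added to CPM also narrows the range of genes as low as the 10 more than that of abundant genes such as Irf7. Irf7, a transcription factor of the interferon response, stood at 35.8, 65.6 and 65.6 CPM in the shZdhhc17 libraries, against 38.4, 83.3 and 120.5 CPM in the shSCR libraries. Slamf7, a receptor of natural killer cells and other leukocytes, stood at 0.628, 1.37 and 1.65 CPM in the shZdhhc17 libraries, against 0.653, 2.56 and 3.34 CPM in the shSCR libraries. None of the 6 passed, and their log2 fold changes ran from -0.99 ± 0.62 for Cd5 to -0.48 ± 0.41 for P2ry6 (SE; adjusted p = 0.553 and 0.662). Cd5 is also among the T cell markers above, Slamf7 among the other natural killer receptors and Irf8 among the interferon gamma targets.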

How the data were processed

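Polyadenylated RNA of dissected metastases was sequenced with a stranded kit, per the labels' protocols. Per the submitters' processing notes, the build was GRCm39 and the tools were STAR 2.6.1, HTSeq, DESeq2 1.34.0 and FastQC 0.11.8. Settings for strand and for reads that match several genes are not given in the sources used here. Raw counts were deposited as whole numbers for 24167 genes in 6 libraries, and 0 count columns were left without a sample. The authors also deposited DESeq2 log2 fold changes with p-values and q-values, and normalized enrichment scores per gene set. The deposited column description names another contrast, while the tables themselves give shZDHHC17 against shSCR, and the log2 fold changes copied from them have the sign and size of those computed here with DESeq2.

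Deposited counts were scaled by TMM and tested two-sided with edgeR 4.0.16 in R 4.3.3 (glmQLFit, robust, and glmQLFTest) after filterByExpr, which kept 15567 genes and 8 of the 10 described. Adjusted p-values in the report, where no other tool is named, are Benjamini-Hochberg values of this edgeR test over all genes tested. Standard errors were derived from the fold change and its F statistic. DESeq2 1.42.0 and limma 3.58.1 (voom) were alternatives. All were run on simulated counts with the same dispersion for every gene and changes only in genes with a mean of at least 1 CPM. That run does not cover a spread that differs among genes, as it does here. Exon lengths are unions of GENCODE M21 exons on GRCm38, and promoters are from RefSeq on GRCm38.p6, another build than that of the counts. Libraries were grouped by their titles. The most alike replicates had a chi-square of 14.6 per gene, above the 1 of pure counting noise, and no library was treated as a repeat.

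The 10 genes and the lists were chosen with earlier results of these data known. The genes named are the 10, Zdhhc17, for each pathway list the 2 tested genes with the smallest p (all granzymes), 3 such T cell and neutrophil markers, and the 6 genes with the most similar profile; the rule allowed up to 3 genes per list and further markers, and those not named are covered by list counts and sums.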

Additional observations from a re-analysis of the deposited data

How the results depend on the processing

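Of 15 alternatives, none brought any of the 10 genes past the threshold, the smallest adjusted p being 0.165, for Prf1 without shSCR replicate 1 (range for Prf1 over all alternatives 0.165 to 0.874). The count of all genes past it was 0 in edgeR and became 3 without a filter on low counts, 4 with the hepatocyte covariate and 201 with DESeq2. Without single libraries it ran from 0 to 1, that of the 10 genes stayed at 0, and their median ran from -1.42 (without shZdhhc17 replicate 3, where Ifng enters) to -0.30 (without shSCR replicate 3). Gzma turned positive with voom (0.14), the replicate block (0.071), the hepatocyte covariate (0.70), the leukocyte covariate (0.46), and without shZdhhc17 replicate 1 (0.26) or shSCR replicate 3 (0.81). Ncr1 did so with the hepatocyte (0.43) and leukocyte covariates (0.15) and without the same libraries (0.12 and 0.60), Eomes without shSCR replicate 3 (0.081). Serpinb9 and Socs1 turned with the hepatocyte covariate (0.077 and 0.17) and without shSCR replicate 3 (0.17 and 0.25). Leaving out single libraries, the ranges were -0.62 to 0.81 for Gzma, -0.77 to 0.60 for Ncr1, -0.62 to 0.081 for Eomes, -0.28 to 0.17 for Serpinb9 and -2.35 to 0.25 for Socs1. The cause was not tested. The leukocyte covariate was chosen after seeing the data. Only DESeq2 called Klrb1b, Tox, Jak2, Mmp8 and S100a9 among the genes named. Library totals alone moved the median of all genes to -0.13.

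Same-numbered libraries of the groups deviated with correlations of -0.0592, 0.315 and -0.0458, so the replicate number was not taken as a pairing. With the replicate block 0 genes passed, 7 of the 8 were negative and their median was -0.68. The fold changes of the 8 tested genes had standard errors of 0.38 to 0.87, which limits what could be detected. Counts of a tested gene were as low as 5 in a library, but the standard errors did not follow the counts alone. Klrd1, with 13 to 54 counts per library, had 0.51, and Gzmb, with 25 to 251, had 0.74.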
